A study of Homo sapiens with 4 samples.

Results

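The genes examined here were 10 genes of YAP-TEAD signalling, out of 24462 gene symbols counted in HepG2, a human hepatocellular carcinoma cell line. They were chosen by symbol as CTGF, CYR61, ANKRD1, AMOTL2, AJUBA, AXL, LATS2, YAP1, TEAD1 and F3, and all 10 were found as 1 row in each table, with CTGF and CYR61 under these names and not as CCN2 and CCN1. Total RNA was isolated and sequenced as 4 QuantSeq 3′ mRNA libraries primed with oligo-dT, with 1 library per condition. HepG2 cells received DMSO, the solvent, or PD0332991 (PD-0332991), an inhibitor of the kinases CDK4 and CDK6, and in the other arm were transfected with scrambled siRNA as control or with siRNAs against both CDK4 and CDK6 (CDK4/6 KD). All cells were 1 cell line in RPMI medium with serum, without any other allele or agent in the labels, and neither the dose of PD0332991 nor the time of harvest of the sequenced cells was given in the sources used here. With 1 library per condition no test was possible, no p-value is given, and a difference between libraries cannot be told apart from a difference between cultures.

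YAP (YAP1) and its relative TAZ are coactivators without a DNA-binding domain, and they reach DNA through the TEAD transcription factors. The Hippo kinases MST and LATS phosphorylate YAP and keep it in the cytoplasm, and cell density, stiffness of the substrate, the actin cytoskeleton and serum factors change this control. In liver the pathway is known for setting organ size, and active YAP is known from hepatocellular carcinoma. YAP1 and TEAD1 are thus the regulators in the list, CTGF, CYR61, ANKRD1, F3 and AXL are targets with functions outside the pathway, and AMOTL2, LATS2 and AJUBA are targets whose products act back on the pathway. Protein level, phosphorylation and location of YAP were not measured.

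TEAD factors bind the hexamer GGAATG, which reads CATTCC on the other strand. This hexamer was searched on both strands in the RefSeq promoter windows of GRCh38.p14, which run from 250 bases before to 50 bases after a start site. It was present in 4928 of 35116 windows of all genes (14.0%). Of the members, 8 had 11 windows, and 7 of these windows held it, those of CTGF, ANKRD1, LATS2 and YAP1 and the second windows of AMOTL2, AJUBA and AXL. The F3 window and the first windows of AMOTL2, AJUBA and AXL did not hold these letters, and CYR61 and TEAD1 were not matched. The genes had been listed because they were known targets or, for YAP1 and TEAD1, regulators of the pathway, and a match of letters is not a bound site. The 250 bases before the start site are given for CTGF and ANKRD1, which differed in opposite directions after PD0332991, and for AJUBA, which was highest in CDK4/6 KD. Capitals mark the hexamer, and bases are counted back from the start site.

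The CTGF sequence lies at chr6:131951373-131951622 on the minus strand, with matches that start at bases -169, -104 and -95. The ANKRD1 sequence lies at chr10:90921088-90921337 on the minus strand, with matches at -220 and -128. For AJUBA the second start site is shown, at chr14:22976843-22977092 on the minus strand, with 1 match at -59. This sequence lies inside the gene, and the first AJUBA window, which spans the annotated start of the gene, held no match. Reads from 3′ ends do not tell which start site was used.
CTGF: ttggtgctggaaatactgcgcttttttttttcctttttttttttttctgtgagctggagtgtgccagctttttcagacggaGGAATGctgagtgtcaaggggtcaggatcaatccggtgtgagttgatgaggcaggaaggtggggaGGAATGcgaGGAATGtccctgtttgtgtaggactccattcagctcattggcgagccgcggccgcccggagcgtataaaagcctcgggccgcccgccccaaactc
ANKRD1: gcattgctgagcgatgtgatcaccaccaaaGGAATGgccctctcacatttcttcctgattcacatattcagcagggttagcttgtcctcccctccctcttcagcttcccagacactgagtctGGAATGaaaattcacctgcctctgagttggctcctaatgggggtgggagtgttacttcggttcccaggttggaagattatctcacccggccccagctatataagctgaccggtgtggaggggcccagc
AJUBA: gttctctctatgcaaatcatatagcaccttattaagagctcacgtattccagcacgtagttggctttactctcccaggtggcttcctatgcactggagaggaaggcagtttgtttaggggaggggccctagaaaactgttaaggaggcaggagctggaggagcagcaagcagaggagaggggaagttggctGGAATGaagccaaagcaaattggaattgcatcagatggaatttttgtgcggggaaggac

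Library size ranged from 8983848 to 11176880 reads, with 12780 to 13257 genes at 10 reads or more. Counts were divided by library size with TMM factors and are given as CPM, a gene's reads scaled to a library of 1 fixed size. In QuantSeq libraries a transcript gives reads near its poly(A) tail only, so that a long gene does not collect more reads, and CPM were compared between genes without a correction for length. Both targeted genes were reduced by the siRNAs, with fold changes against scrambled siRNA of 0.203 for CDK4 and 0.241 for CDK6 (71.9 and 129 CPM in CDK4/6 KD). Hepatocyte markers were present in all libraries, with 10 of 10 above 3 reads and summed levels from 17400 to 22300 CPM. Endothelial markers summed to at most 0.657 CPM, and CDH5, KDR and ERG had no read. Markers of 2 other cell types differed between the libraries. The 8 fibroblast markers summed to 50.1 CPM in DMSO, 81.1 in PD0332991, 8.97 in scrambled siRNA and 23.1 in CDK4/6 KD. Most of each sum came from COL1A1 (36.3, 51.4, 6.82 and 18.3 CPM). THY1 had 13 reads in both DMSO and PD0332991. DCN had no read in DMSO or scrambled siRNA, 18 in PD0332991 and 2 in CDK4/6 KD. Of the 16 keratinocyte markers, 8 had more than 3 reads in DMSO, 14 in PD0332991, 11 in scrambled siRNA and 10 in CDK4/6 KD. KRT14 had 9 reads in DMSO, 249 in PD0332991, 31 in scrambled siRNA and 74 in CDK4/6 KD. Not all markers had this order. SFN was lowest in PD0332991, with 134 CPM in DMSO, 61.8 in PD0332991, 305 in scrambled siRNA and 102 in CDK4/6 KD. KRT6A had 9, 150, 37 and 28 reads in the same libraries. The keratinocyte sums were 210 CPM in DMSO, 237 in PD0332991, 373 in scrambled siRNA and 212 in CDK4/6 KD, mostly from SFN and KRT10. KRT1, DSG1 and COL17A1 had no read in DMSO, and TP63 had at most 1 read in any library. In bulk RNA, fewer cells of a type and less RNA per cell cannot be told apart. The part of these cell type markers in the values of the 10 genes was not tested.

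All 10 genes were above 30 reads in every library. ANKRD1 had the highest mean level (224 CPM), followed by CTGF (159), YAP1 (112), AJUBA (111), TEAD1 (50.4), CYR61 (38.2), LATS2 (34), AMOTL2 (16.8), AXL (6.77) and F3 (5.43). YAP1 varied least over the 4 libraries (1.23-fold between the highest and the lowest), and AXL varied most (3.93-fold). The highest library was CDK4/6 KD for 6 genes (ANKRD1, AMOTL2, AJUBA, LATS2, TEAD1 and F3), scrambled siRNA for CYR61, AXL and YAP1, and PD0332991 for CTGF. Of these 6 genes, only AJUBA was above its next lower library beyond the counting error of its reads. ANKRD1, for example, had 286 CPM in CDK4/6 KD and 284 in scrambled siRNA, and TEAD1 had 61.8 in both CDK4/6 KD and DMSO. The share of all genes highest in CDK4/6 KD was not computed.

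**Figure D1:**
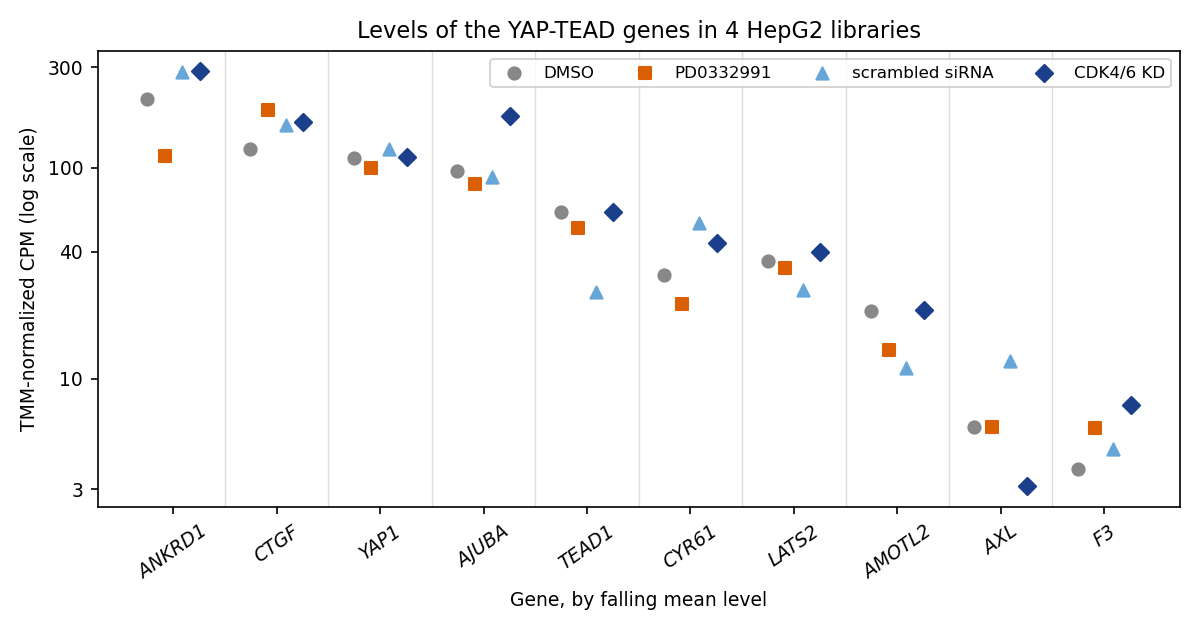
TMM-normalized CPM (log axis) of each of the 10 genes in the 4 libraries, with 1 point per library and genes ordered by mean level. The scrambled siRNA library stands lowest of the 4 for TEAD1 (25.9 CPM), LATS2 (26.3) and AMOTL2 (11.2), and CDK4/6 KD stands apart above the others for AJUBA (176).

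YAP1, the coactivator itself (chromosome 11, 102110461 to 102233423 of GRCh38 on the plus strand in GENCODE 29, as for all gene positions here), had 1016 reads in DMSO, 913 in PD0332991, 1319 in scrambled siRNA and 1284 in CDK4/6 KD, or 111, 100, 123 and 113 CPM. The 4 levels lay close together. Its fold change was 0.92 in CDK4/6 KD against scrambled siRNA (95% interval 0.852 to 0.994) and 0.902 in PD0332991 against DMSO (0.824 to 0.987). Each interval was computed from how the reads of a gene divided between the libraries compared (exact Clopper-Pearson), and covers counting error only. GENCODE 29 lists 2 pseudogenes of YAP1, YAP1P1 and YAP1P2, whose similar sequence makes its count less certain.

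TEAD1, the transcription factor that carries YAP to DNA (chromosome 11, 12674591 to 12944483 on the plus strand), had 565 reads in DMSO, 474 in PD0332991, 277 in scrambled siRNA and 700 in CDK4/6 KD, or 61.8, 52.1, 25.9 and 61.8 CPM. Scrambled siRNA was low, and DMSO and CDK4/6 KD had the same level. In CDK4/6 KD the fold change was 2.39 against scrambled siRNA (95% interval 2.08 to 2.76) and 1.00 against DMSO (0.894 to 1.12). The control libraries differed by the inverse amount, with a fold change of 0.419 of scrambled siRNA to DMSO (0.361 to 0.484). After PD0332991 the fold change was 0.842 against DMSO (0.744 to 0.953) and 2.01 against scrambled siRNA (1.73 to 2.34).

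CTGF, a secreted matricellular protein of the CCN family and the most used readout of YAP activity (chromosome 6, 131948176 to 131951373 on the minus strand), had 1126 reads in DMSO, 1714 in PD0332991, 1714 in scrambled siRNA and 1859 in CDK4/6 KD, or 123, 188, 160 and 164 CPM. DMSO was lowest and PD0332991 highest. The fold change in CDK4/6 KD was 1.03 against scrambled siRNA (95% interval 0.96 to 1.1), so that both siRNA libraries did not differ beyond counting error. PD0332991 was 1.53-fold higher than DMSO (interval 1.42 to 1.65) and 1.18-fold higher than scrambled siRNA (1.1 to 1.26). Antisense genes overlap CTGF, AXL, LATS2, YAP1 and TEAD1 in GENCODE 29, outside their last 2000 bases, and without the strand setting of the counting, which was not given in the sources used here, their reads cannot be told apart from those of the genes.

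CYR61, the other CCN protein of the list (chromosome 1, 85580761 to 85583962 on the plus strand), had 285 reads in DMSO, 207 in PD0332991, 584 in scrambled siRNA and 500 in CDK4/6 KD, or 31.2, 22.7, 54.6 and 44.2 CPM. Each library differed from the next lower one beyond counting error, and both siRNA libraries were above both libraries of the drug arm. The fold change was 0.81 in CDK4/6 KD against scrambled siRNA (95% interval 0.717 to 0.914) and 1.42 against DMSO (1.22 to 1.64). After PD0332991 it was 0.729 against DMSO (0.606 to 0.875). CTGF and CYR61 are related genes that respond to many of the same signals, and after PD0332991 they differed from DMSO in opposite directions.

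ANKRD1, an ankyrin repeat protein of the nucleus and sarcomere (chromosome 10, 90912096 to 90921276 on the minus strand), had 1930 reads in DMSO, 1037 in PD0332991, 3035 in scrambled siRNA and 3242 in CDK4/6 KD, or 211, 114, 284 and 286 CPM. PD0332991 was the low library, and the siRNA libraries were alike. Its fold change in CDK4/6 KD was 1.01 (95% interval 0.961 to 1.06), the narrowest interval of the 10 genes. After PD0332991 it was 0.539 against DMSO (0.5 to 0.582), the lowest fold change of the 10 genes in that comparison, and 0.402 against scrambled siRNA (0.374 to 0.431).

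F3 encodes tissue factor, the membrane protein that starts coagulation with factor VII (chromosome 1, 94529225 to 94541800 on the minus strand). It rested on 34 reads in DMSO, 53 in PD0332991, 50 in scrambled siRNA and 85 in CDK4/6 KD, or 3.72, 5.82, 4.67 and 7.51 CPM. No library differed from the next lower one beyond counting error, although the ends of the order did. The fold change in CDK4/6 KD was 1.6 against scrambled siRNA (95% interval 1.12 to 2.33) and 2.00 against DMSO (1.34 to 3.1). After PD0332991 it was 1.56 (0.998 to 2.48).

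AXL, a receptor tyrosine kinase whose ligand is GAS6 (chromosome 19, 41219203 to 41261766 on the plus strand), had 54 reads in DMSO, 54 in PD0332991, 130 in scrambled siRNA and 35 in CDK4/6 KD, or 5.91, 5.93, 12.1 and 3.09 CPM. Scrambled siRNA was high and CDK4/6 KD low, with both libraries of the drug arm between them. Knockdown gave a fold change of 0.257 against scrambled siRNA (95% interval 0.17 to 0.372), the lowest of the 10 genes, and 0.527 against DMSO (0.332 to 0.815). PD0332991 and DMSO had a ratio of 1.00 (0.675 to 1.49), an interval wide enough to hold a difference of nearly 1.5-fold.

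AMOTL2, an angiomotin that holds YAP at junctions and promotes its phosphorylation (chromosome 3, 134355874 to 134375479 on the minus strand), had 192 reads in DMSO, 125 in PD0332991, 120 in scrambled siRNA and 239 in CDK4/6 KD, or 21, 13.7, 11.2 and 21.1 CPM. DMSO and CDK4/6 KD formed the high pair, PD0332991 and scrambled siRNA the low pair. The fold change in CDK4/6 KD was 1.88 against scrambled siRNA (95% interval 1.51 to 2.36) and 1.00 against DMSO (0.827 to 1.22). After PD0332991 it was 0.654 against DMSO (0.517 to 0.823) and 1.22 against scrambled siRNA (0.945 to 1.59). The pseudogene RPL39P5 overlaps the last 2000 bases of AMOTL2 on the same strand, which makes this count less certain.

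LATS2, the kinase that phosphorylates YAP (chromosome 13, 20973032 to 21061547 on the minus strand), had 332 reads in DMSO, 307 in PD0332991, 281 in scrambled siRNA and 451 in CDK4/6 KD, or 36.3, 33.7, 26.3 and 39.8 CPM. Scrambled siRNA was below the other libraries, which did not differ from their neighbours in the order beyond counting error. Its fold change in CDK4/6 KD was 1.52 against scrambled siRNA (95% interval 1.3 to 1.77) and 1.1 against DMSO (0.95 to 1.27). After PD0332991 it was 0.928 (0.792 to 1.09).

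AJUBA, a LIM-domain scaffold that binds LATS kinases and limits their action on YAP (chromosome 14, 22971174 to 22982642 on the minus strand), had 880 reads in DMSO, 760 in PD0332991, 966 in scrambled siRNA and 1988 in CDK4/6 KD, or 96.3, 83.5, 90.3 and 176 CPM. CDK4/6 KD was high, and the other libraries lay between 83.5 and 96.3 CPM. Knockdown gave a fold change of 1.94 against scrambled siRNA (95% interval 1.8 to 2.1) and 1.82 against DMSO (1.68 to 1.98), so that the choice of control mattered little for this gene. After PD0332991 it was 0.867 (0.785 to 0.956). The protein-coding entry AL132780.3 overlaps the last 2000 bases of AJUBA on the same strand in GENCODE 29, and reads of these genes could not be told apart here.

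Knockdown against its scrambled control left 1 of the 10 genes at least 2-fold higher (TEAD1) and 1 at least 2-fold lower (AXL). Over the 13617 genes tested, which had 10 reads or more in 1 of the libraries compared or in both, 9.19% were at least 2-fold higher and 7.62% lower, so that the 10 genes did not stand out by these counts. Intervals lay above 1 for 5 genes (AMOTL2, AJUBA, LATS2, TEAD1 and F3) and below 1 for 3 (CYR61, AXL and YAP1), against 30.0% and 31.9% of all genes tested. Their log2 fold changes had a median of 0.32, and those of all genes tested -0.004. AJUBA and AMOTL2 lay just inside 2-fold, and with total counts as library sizes, which moved the median of all genes by 0.104, they passed it, for 3 genes higher and 1 lower. The interval of YAP1 ended at 0.994, close to 1, and with total counts its log2 fold change went from -0.12 to -0.016.

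After PD0332991 no gene of the list reached 2-fold against DMSO, and no p-value, adjusted or unadjusted, could be computed for these libraries. Of the 13443 genes tested, 7.49% were at least 2-fold higher and 7.06% lower. Intervals lay above 1 for CTGF alone and below 1 for 6 genes (CYR61, ANKRD1, AMOTL2, AJUBA, YAP1 and TEAD1), against 28.1% and 28.6% of all genes tested. The median log2 fold change was -0.18, and that of all genes 0.018. Against scrambled siRNA in place of DMSO, the 10 genes had a median of 0.06, and TEAD1 was at least 2-fold higher and CYR61, ANKRD1 and AXL at least 2-fold lower, where 10.6% and 8.17% of all genes tested were.

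**Figure D2:**
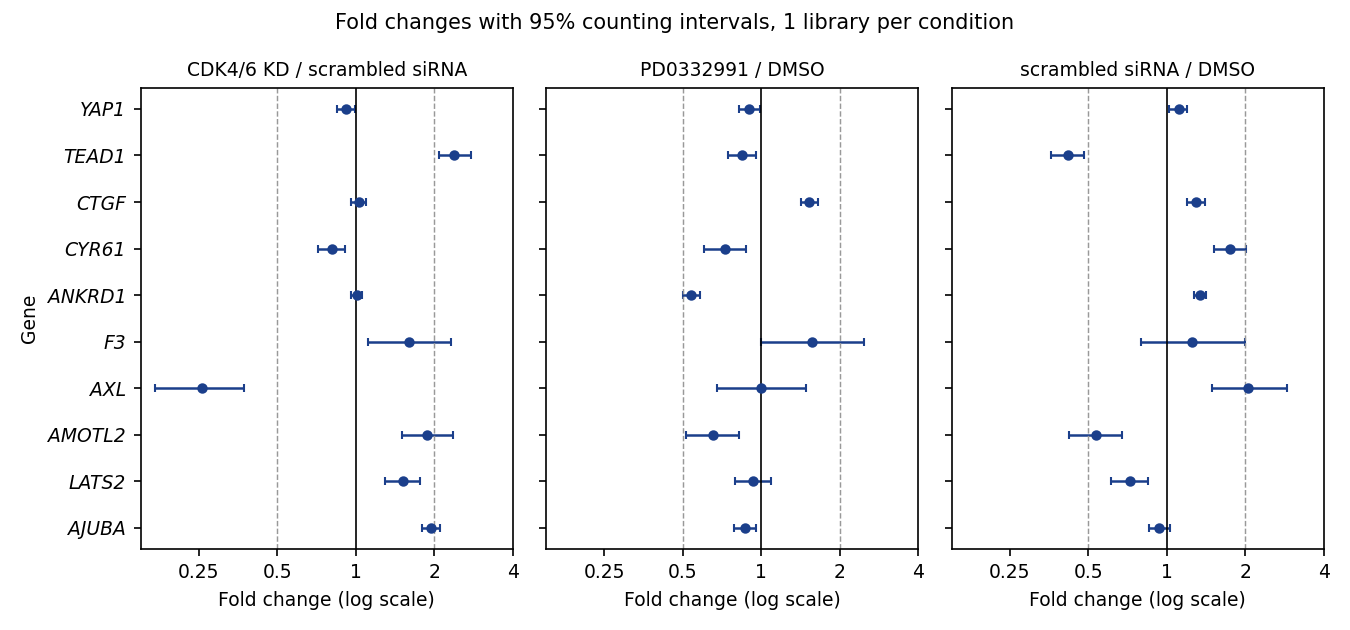
Fold changes (points, log axis) of the 10 genes in 3 comparisons, with 95% counting intervals as bars and dashed lines at 2-fold. In the panel of the control libraries TEAD1 (0.419) and AMOTL2 (0.535) lie left of 1 and AXL (2.05) right of it, each on the other side of 1 from its place in the CDK4/6 KD panel.

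The control libraries, both without CDK4/6 inhibition but with and without transfection, differed for several of the genes. Scrambled siRNA was 2.05-fold above DMSO for AXL (95% interval 1.49 to 2.88), and TEAD1 was at least 2-fold lower, where 5.30% of the 13303 genes tested were higher and 6.64% lower. Intervals lay above 1 for CTGF, CYR61, ANKRD1, AXL and YAP1 and below 1 for AMOTL2, LATS2 and TEAD1, against 28.3% and 28.0% of all genes tested. The most used readouts, CTGF, CYR61 and ANKRD1, were 1.3-fold, 1.75-fold and 1.34-fold higher with scrambled siRNA. Against DMSO, CDK4/6 KD was at least 2-fold higher for F3 and for no other gene of the list, and at least 2-fold lower for none, where 8.04% and 8.16% of all genes tested were. These comparisons share libraries, and their values are therefore not independent of each other.

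A reading that does not turn on the choice of control requires the same side of 1 against both control libraries. This was chosen after the values were seen. CDK4/6 KD was higher than both controls, with both intervals above 1, for AJUBA and F3, and lower for AXL, while 17.2% and 19.6% of 13379 genes tested met the same rule in each direction. PD0332991 was higher than both controls for CTGF and lower for CYR61, ANKRD1 and YAP1, where 17.7% and 19.0% of 13312 genes did. Between the arms, AMOTL2, AJUBA and TEAD1 were higher in CDK4/6 KD than in its control and lower after PD0332991, with both intervals leaving out 1, as were 6.37% of 13099 genes tested, and no gene of the list lay the other way, where 6.57% did. With total counts as library sizes, 4 genes instead of 2 were higher in CDK4/6 KD than in both controls. The share of all genes was not computed for this setting, which raised the median of all genes by 0.104 against scrambled siRNA. Under this rule, with TMM factors, at most 3 of the 10 genes differed in the same direction.

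**Figure D3:**
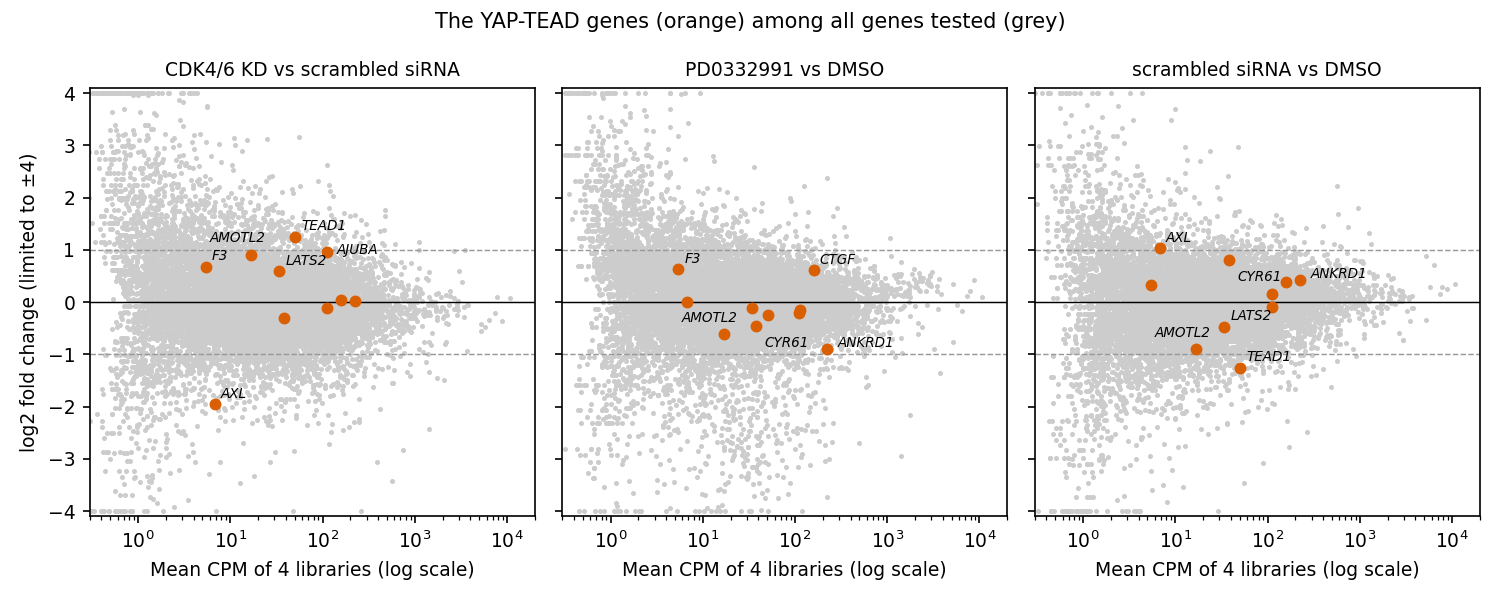
log2 fold change (limited to 4 in either direction) against the mean CPM of the 4 libraries (log axis) for all genes tested (grey) and the 10 genes (orange), in 3 comparisons, with names given where a gene lay over 0.4 from 0. The 10 genes lie inside the grey cloud in each panel, and AXL (-1.96) and TEAD1 (1.25) lie nearest to its edges in CDK4/6 KD.

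Other genes of the pathway were read from lists written by hand, whose counts past 2-fold stand against 9.19% of all genes higher and 7.62% lower in CDK4/6 KD, and 7.49% higher and 7.06% lower after PD0332991. Some low genes named from them (TGFB2, MYOF, FOS, CNN1 and TFPI2) reached 10 reads in only 1 of the libraries compared, in at least 1 comparison given, and their direction there follows from the filter. Of 15 further genes of a published YAP/TAZ target signature, 12 passed the filter in CDK4/6 KD, 3 at least 2-fold higher and 1 lower, with a median log2 fold change of 0.16. NT5E, the ecto-enzyme CD73 that makes adenosine, was higher against both controls (fold changes of 2.16 and 3.05, with 118 reads in DMSO, 233 in PD0332991, 195 in scrambled siRNA and 447 in CDK4/6 KD), but it was named after its values were seen. CCDC80, a secreted matrix protein, had 91 reads in DMSO, 178 in PD0332991, 13 in scrambled siRNA and 43 in CDK4/6 KD. Its fold change in CDK4/6 KD was 3.05 against scrambled siRNA but 0.384 against DMSO. Its levels had the same order over the libraries as the summed fibroblast markers, and the part of such cells was not tested. TGFB2, a secreted growth factor, rested on few reads, 11 in CDK4/6 KD against 2 in its control (fold change: 4.38, 95% interval 1.13 to 48.3). After PD0332991 12 signature genes passed, 1 at least 2-fold higher and 1 lower, with a median of 0.08. The lower gene was MYOF, a ferlin of membrane repair, with 1 read after PD0332991 against 11 in DMSO (fold change: 0.131, interval 0.00212 to 0.628).

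Of 15 Hippo kinases and scaffolds, 13 passed the filter. In CDK4/6 KD 1 was at least 2-fold higher and none lower, with a median log2 fold change of 0.30, and after PD0332991 1 was lower and none higher, with a median of -0.24. The higher gene was LIMD1, a relative of AJUBA (fold change: 2.46, 95% interval 1.68 to 3.72), which stood at 0.979 against DMSO. The lower one was FRMD6, a scaffold upstream of the kinases, on 11 reads after PD0332991 against 26 in DMSO (fold change: 0.435, interval 0.189 to 0.889). Of 7 cofactors and further TEAD factors, 5 passed, and only TEAD4 reached 2-fold in CDK4/6 KD. TEAD4 had 62.9 CPM in DMSO, 44.7 in PD0332991, 68.7 in scrambled siRNA and 27.8 in CDK4/6 KD. It was lower in CDK4/6 KD against both controls (fold changes of 0.406, interval 0.354 to 0.463, and 0.443, interval 0.384 to 0.508), where TEAD1 was not. WWTR1, which encodes TAZ, had between 121 and 196 CPM and a fold change of 0.795 in CDK4/6 KD and 1.1 after PD0332991. With the control of the other arm both lay on the other side of 1. CDK4/6 KD was at 1.28 against DMSO (95% interval 1.19 to 1.38) and PD0332991 at 0.686 against scrambled siRNA (0.639 to 0.737). The medians of the cofactor list were -0.25 and -0.49.

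AP-1 factors bind beside TEAD at many YAP-bound enhancers. Of 7 subunits, 6 passed the filter in CDK4/6 KD, 2 at least 2-fold lower and none higher, with a median of -0.43. FOSL1 had 12.6 CPM in DMSO, 4.61 in PD0332991, 12.8 in scrambled siRNA and 5.48 in CDK4/6 KD. It was low in both treated libraries, with fold changes of 0.43 in CDK4/6 KD (95% interval 0.312 to 0.582), or 0.437 against DMSO, and 0.369 after PD0332991 (0.251 to 0.526). FOS rested on 2 reads in CDK4/6 KD against 11 in its control (fold change: 0.207, interval 0.0185 to 0.788). After PD0332991 5 passed, and FOSL1 alone was at least 2-fold lower, with a median of 0.03. SRF, which shares targets such as CYR61 with YAP, and genes of the actin cytoskeleton made up a list of 12, all of which passed. In CDK4/6 KD 2 were at least 2-fold higher and 1 lower, with a median of -0.14, and after PD0332991 1 was lower and none higher, with a median of -0.40. CNN1, a calponin, had 20 reads in DMSO, 3 in PD0332991, 9 in scrambled siRNA and 103 in CDK4/6 KD (knockdown fold change: 10.3, interval 5.48 to 24.3, or 4.09 against DMSO). TAGLN, a calponin-like actin binder, was higher in CDK4/6 KD against scrambled siRNA (fold change: 3.09) and DMSO (fold change: 1.54). FHL2, a LIM protein and a cofactor of SRF, was lower (fold changes of 0.294 and 0.371). After PD0332991 the fold changes of CNN1, TAGLN and FHL2 against DMSO were 0.171 (0.0286 to 0.508), 0.514 and 0.5. Against scrambled siRNA they were 1.03 (0.867 to 1.23) for TAGLN and 0.397 for FHL2, and CNN1 did not pass the filter.

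**Figure D4:**
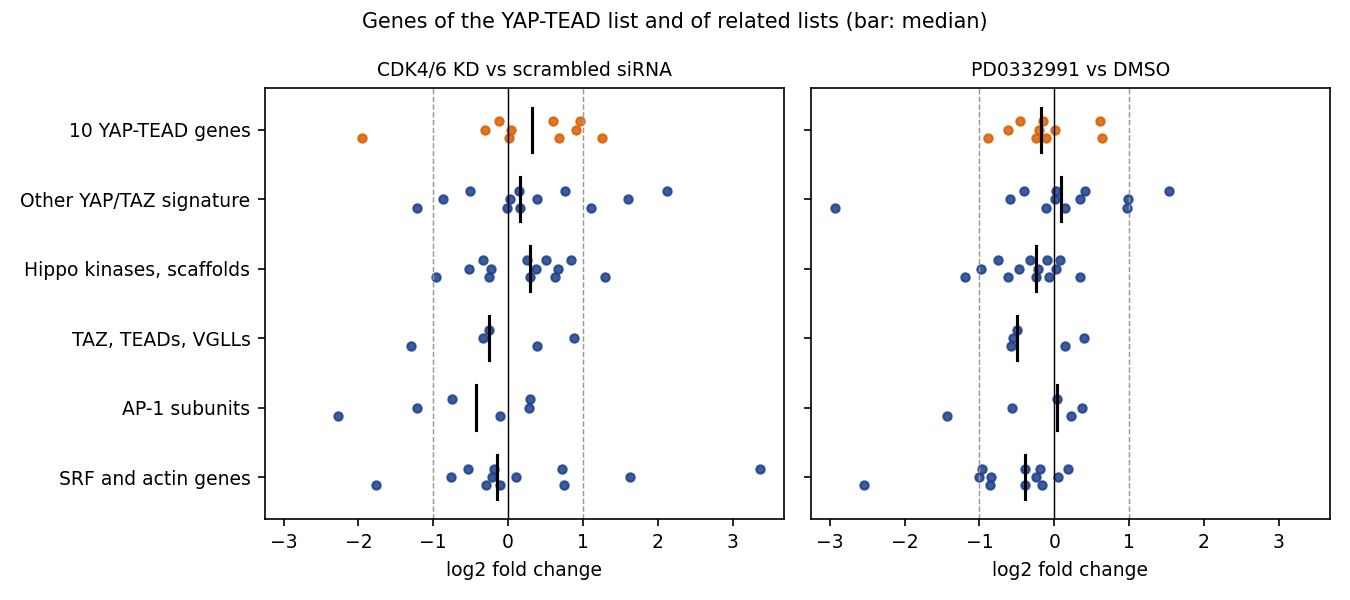
log2 fold change of each gene that passed the filter, for the 10 YAP-TEAD genes (orange) and 5 related lists (blue), in CDK4/6 KD against scrambled siRNA and in PD0332991 against DMSO, with the median as a bar and dashed lines at 2-fold. Genes of each list lie on both sides of 0 in both panels, and the medians lie between -0.49 and 0.32.

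Of the CCN family outside the list, NOV, WISP1 and WISP3 had no read in any library, which allows up to 3 reads each, and WISP2 had between 3 and 13 reads. Among 4 genes of the tissue factor pathway, F7, the partner of F3, was 4.51-fold higher with the knockdown (95% interval 3.88 to 5.27), or 3.94-fold against DMSO, and 2.46-fold higher after PD0332991 (2.09 to 2.91). F10, the substrate of that pair, had fold changes of 1.88 and 2.08. TFPI2, a protease inhibitor, had 7 reads in CDK4/6 KD against 29 in its control (fold change: 0.241). F7 and F10 are also made by hepatocytes, and whether they followed hepatocyte markers was not tested. Of 10 such markers, 9 had intervals above 1 in CDK4/6 KD and 8 after PD0332991, against 30.0% and 28.1% of all genes tested. These markers had many reads, so that intervals left out 1 at small differences (HNF4A in CDK4/6 KD: fold change of 1.09). Their median log2 fold changes were 0.27 and 0.39. APOB was lower in CDK4/6 KD (fold change: 0.868), and ALB (0.919) and AFP (0.687) after PD0332991. Of the proliferation markers, 6 of 10 were at least 2-fold lower in CDK4/6 KD and 10 of 10 after PD0332991 (medians of -1.21 and -3.215). Against DMSO, 10 of 10 were at least 2-fold lower in CDK4/6 KD (median: -1.526), as were 8.16% of all genes tested. Scrambled siRNA against DMSO had a median of -0.499 for these markers. RRM2, MKI67 and CDK1 had fold changes of 0.0466, 0.0757 and 0.0825 after PD0332991.

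The genes with the pattern most like CTGF and CYR61 over the 4 libraries were sought among the 9229 genes whose mean reached 100 reads, by the distance between log2 CPM centred on each gene's mean. Nearest to CTGF were TBC1D5 (distance: 0.0492), DYX1C1-CCPG1 (0.0535), a read-through entry that overlaps CCPG1, and COMMD3 (0.0592). Nearest to CYR61 were TANC1 (distance: 0.0524) and CNN2 (0.0687). CNN2 had 151 CPM in DMSO, 110 in PD0332991, 251 in scrambled siRNA and 217 in CDK4/6 KD. With 4 points per gene the distances are a description only.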

How the data were processed

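RNA of HepG2 cells was sequenced in 4 QuantSeq 3′ mRNA libraries with 75-base single-end reads, and the tables deposited by the authors hold counts of reads by gene symbol, 1 library each and not normalized. Bowtie2, edgeR and the build hg19 are named in the submitters' processing notes. Their versions and roles, the counter, its strand setting and the annotation are not given in the sources used here. The tables hold 25737 rows, and counts of 286 symbols listed more than once were summed. None of the 10 genes was among them.

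The groups were taken from the sample titles. Library sizes were scaled by TMM over the 4 libraries (edgeR 4.0.16, R 4.3.3). Fold changes used a pseudocount of 0.5 reads and were given for genes that reached 10 reads in 1 of the libraries compared or in both, with exact 95% Clopper-Pearson intervals (scipy 1.17.1). No test could be run with 1 library per condition, and intervals cover counting error only, since reads carried no molecular identifiers in the methods. The fold change and interval computation was tested on simulated data. DESeq2 1.42.0 gave alternative size factors. Total counts, a pseudocount of 5 reads, no filter, a filter of 50 reads, the control of the other arm, a 1.5-fold threshold and whole intervals past 2-fold were also tried.

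The 10 genes and all lists were chosen with earlier results of these data known. All 10 genes are named, and of each other list up to 3 genes at least 2-fold apart in either treatment comparison with an interval past 1. NT5E, WWTR1 and some cell type markers were named beyond this rule, after their values were seen. The 3 genes nearest in pattern to CTGF and to CYR61 were to be named too, of which 1 is not reported here. Positions come from GENCODE 29 on GRCh38 and promoters from RefSeq on GRCh38.p14, a build other than that of the counts, which carry symbols only.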

Additional observations from a re-analysis of the deposited data

Results flagged for a closer look

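For 3 genes the fold change lay on one side of 1 in CDK4/6 KD against scrambled siRNA and on the other in PD0332991 against DMSO, with both intervals leaving out 1. All 3 were higher in CDK4/6 KD and lower after PD0332991, as were 6.37% of 13099 genes tested. The difference between the arms was not tested, since each arm holds 1 library per condition. For AMOTL2 the log2 fold changes differed by 1.52 (0.91 and -0.61). For TEAD1 they differed by 1.503 (1.25 and -0.25). For AJUBA they differed by 1.17 (0.96 and -0.21). The arms also differ in transfection, and the control libraries differed for TEAD1 (log2 fold change of scrambled siRNA to DMSO: -1.25) and AMOTL2 (-0.90) and less for AJUBA (-0.09). Against DMSO, CDK4/6 KD had log2 fold changes of 0.007 for AMOTL2, 0.00 for TEAD1 and 0.87 for AJUBA.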

How the results depend on the processing

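The choice of control library changed most. With it exchanged, 1 gene of the list instead of 2 was at least 2-fold apart in CDK4/6 KD and 4 instead of 0 after PD0332991, whose median log2 fold change went from -0.18 to 0.06. Of the 20 single fold changes, 7 changed sign and 16 left their counting interval, by up to 1.26 on the log2 scale. The 7 include TEAD1 in CDK4/6 KD, whose log2 fold change went from 1.255 to 0.00, which is no difference. They also include AXL after PD0332991, which started at 0.005. With total counts, 4 genes passed 2-fold in CDK4/6 KD and 1 between the control libraries, where 1 also passed with a pseudocount of 5 reads. Intervals lay wholly beyond 2-fold for 2 genes in CDK4/6 KD (AXL and TEAD1), 0 after PD0332991 and 1 between the controls (TEAD1). Of all genes tested, 6.55%, 5.07% and 3.23% had such intervals. A threshold of 1.5-fold gave 6 genes in CDK4/6 KD, 4 after PD0332991 and 4 between the controls, against 36.8%, 31.9% and 29.1% of all genes tested. With total counts 5 genes instead of 3 lay on 1 side of both controls in CDK4/6 KD. The share of all genes under that rule was not computed with total counts. Total counts moved all genes, with a median 0.104 higher in CDK4/6 KD against scrambled siRNA. Of all 2-fold calls there, 63.6% were higher, against 54.7% with TMM factors. DESeq2's size factors and both other filters moved no count or median of the 10 genes beyond counting error. No paired analysis was possible because each condition has 1 library. No replicate could be left out for the same reason. Depth limits AXL and F3 most, with 34 to 130 reads per library.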
